A study of Mus musculus with 61 samples.

Results

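T cells were isolated from the spleens of C57BL/6 mice (generated on C57BL/6N) that carry the Y665F substitution in STAT5B, and their RNA was sequenced with and without exposure to interleukin 2 and interleukin 7 (IL-2 and IL-7). The comparison held 7 of the 61 libraries of the study, chosen by their sample names: 4 libraries of Y665F T cells cultured with both interleukins for 24 h, called stimulated here, and 3 of Y665F T cells without interleukin, called unstimulated. All mice were 2 months old, and both groups carried the same mutation. The mutation was introduced into the germline by CRISPR/Cas9, so it was present in all cells of the animal, and the sources used here do not give the zygosity of these mice. They do not state for these 3 libraries whether the unstimulated cells were cultured for the same time or taken directly from the spleen, although the study describes T cells sequenced directly after isolation for its comparison at steady state. The effects of culture and of the interleukins therefore cannot be told apart. A further 4 libraries of stimulated WT T cells, from mice of the same strain and age, stand beside the stimulated Y665F libraries for some genes. Another 4 libraries, of stimulated T cells with the STAT5B substitution Y665H, entered only the shared estimate of the spread. No library of unstimulated WT T cells was analysed here, so the comparison shows the response of Y665F T cells and not whether that response differs from that of WT T cells.

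IL-2 and IL-7 are growth and survival factors of T cells. Their receptors share the common gamma chain, encoded by Il2rg, which pairs with the IL-2 receptor alpha and beta chains (Il2ra, Il2rb) or with the IL-7 receptor alpha chain (Il7r). Bound receptors activate the kinases JAK1 and JAK3, which phosphorylate STAT5A and STAT5B. The phosphorylated STAT5 proteins pair, enter the nucleus and bind DNA at the gamma-interferon-activated sequence (GAS), with the letters TTCNNNGAA. The complex that forms downstream of type I interferon, with STAT2 and IRF9, binds the interferon-stimulated response element (ISRE), whose core has the letters GAAANNGAAA. Known STAT5 target genes include the feedback inhibitor Cish and the survival gene Bcl2.

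The mutated codon lies in exon 16 of the 19 exons of the Stat5b transcript, on the minus strand of chromosome 11 (GRCm38, chr11:100787291-100787293), within the part that encodes the SH2 domain. It is shown because every library of the 2 Y665F groups carries it by label. In the following stretches the capitals mark the mutated codon in the reference transcript (GENCODE) and in the donor oligonucleotide the study listed, and the guide RNA is given with its PAM in capitals.
Stat5b reference: ggggacctgaatTACctcatatatgtg
Donor oligonucleotide: ggggacctgaatTTTctcatatatgtg
Guide RNA with PAM: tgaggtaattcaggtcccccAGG
Over its 133 bases, the listed oligonucleotide differed from the reference transcript at 2 bases, both in the mutated codon, which changes tyrosine (TAC) to phenylalanine (TTT). The methods of the study also name a silent change in the donor, which the oligonucleotide as listed does not hold. The guide lies on the strand opposite to the coding strand. The deposited gene counts hold no bases, so the presence of the mutation could not be checked in them.

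Promoters of 6 genes on which the results turn are shown from 250 bases before to 50 bases after a RefSeq transcript start (GRCm38.p6), 5′ to 3′ on the strand of the gene, with each match to the GAS or ISRE letters in capitals. The start used lies 227 bases inside the outer 5′ end of the gene for Lta and 65 bases inside it for Il7r, and at that end for Cish, Gzmb, Igtp and Irgm1. Cish and Lta are interleukin-responsive genes, Gzmb had the largest rise of all genes named below, Igtp and Irgm1 stand for the interferon-inducible GTPases, and Il7r is the receptor gene that fell.
Cish, chr9:107296409-107296708, plus strand: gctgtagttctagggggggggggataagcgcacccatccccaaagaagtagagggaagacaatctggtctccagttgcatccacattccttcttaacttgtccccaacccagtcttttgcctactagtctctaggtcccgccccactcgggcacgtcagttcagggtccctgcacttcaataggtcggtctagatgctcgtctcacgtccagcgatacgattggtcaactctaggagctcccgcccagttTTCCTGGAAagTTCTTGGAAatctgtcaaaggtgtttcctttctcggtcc
Lta, chr17:35205302-35205601, minus strand: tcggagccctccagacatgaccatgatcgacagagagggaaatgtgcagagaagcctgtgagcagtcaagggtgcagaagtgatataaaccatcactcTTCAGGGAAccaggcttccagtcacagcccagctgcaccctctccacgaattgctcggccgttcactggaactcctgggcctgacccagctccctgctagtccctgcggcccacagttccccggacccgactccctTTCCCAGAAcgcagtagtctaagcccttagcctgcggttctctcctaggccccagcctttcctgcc
Gzmb, chr14:56262285-56262584, minus strand: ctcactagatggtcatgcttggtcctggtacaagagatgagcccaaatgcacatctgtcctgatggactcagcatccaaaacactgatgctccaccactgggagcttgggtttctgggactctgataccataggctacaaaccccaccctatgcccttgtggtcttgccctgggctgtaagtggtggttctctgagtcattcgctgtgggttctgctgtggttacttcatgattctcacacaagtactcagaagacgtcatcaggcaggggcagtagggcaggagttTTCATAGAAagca
Igtp, chr11:58199306-58199605, plus strand: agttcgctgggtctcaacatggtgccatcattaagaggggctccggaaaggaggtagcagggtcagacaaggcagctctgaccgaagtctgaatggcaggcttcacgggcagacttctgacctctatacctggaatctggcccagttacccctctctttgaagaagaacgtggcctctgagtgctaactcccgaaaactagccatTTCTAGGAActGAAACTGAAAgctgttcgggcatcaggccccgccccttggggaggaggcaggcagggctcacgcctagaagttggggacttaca
Irgm1, chr11:48871371-48871670, minus strand: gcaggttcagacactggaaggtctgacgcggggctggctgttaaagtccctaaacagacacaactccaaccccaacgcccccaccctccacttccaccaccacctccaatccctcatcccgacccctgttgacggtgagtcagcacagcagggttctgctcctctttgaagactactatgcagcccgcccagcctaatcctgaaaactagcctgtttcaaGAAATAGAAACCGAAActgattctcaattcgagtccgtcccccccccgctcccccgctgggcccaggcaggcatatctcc
Il7r, chr15:9529827-9530126, minus strand: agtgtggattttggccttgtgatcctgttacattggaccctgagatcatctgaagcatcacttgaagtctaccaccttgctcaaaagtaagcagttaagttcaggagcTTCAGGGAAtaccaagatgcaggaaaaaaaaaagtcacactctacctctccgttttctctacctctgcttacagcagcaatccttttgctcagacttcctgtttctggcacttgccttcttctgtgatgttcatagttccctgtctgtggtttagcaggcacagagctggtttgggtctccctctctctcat
The window of Cish held 2 GAS matches and that of Lta 2, while Igtp held 1 GAS match that began 45 bases upstream of the start and 1 ISRE match that began 34 bases upstream. Irgm1 held 2 ISRE matches that overlap each other, and Gzmb and Il7r held 1 GAS match each. Among the 16439 tested genes with a promoter in the RefSeq table, 8.2% held a GAS match and 3.4% an ISRE match on either strand. Each of the 6 windows shown holds a match, which most tested genes did not. Among genes called higher below that had a promoter, a GAS match was held by 0 of 4 gamma-chain receptor genes. It was held by 1 of 8 survival and growth genes (Lta) and 2 of 4 feedback inhibitors (Cish and Socs3). The 6 windows therefore do not stand for the called genes in general. A match describes letters in the window and was not tested as a binding site.

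The 4 stimulated libraries held between 2851451 and 21423720 reads on genes and the 3 unstimulated libraries between 7198500 and 14809823, so 1 read was worth least in stimulated replicate 1 and most in stimulated replicate 3. T cell markers were present in every library, with a summed level of 1385 to 3650 CPM (the reads of a gene scaled to the depth of the library, with TMM factors) in stimulated and 2006 to 3170 CPM in unstimulated libraries. Trac, Trbc1 and Trbc2, the T cell receptor constant genes, were not among the gene symbols of the deposited counts, so the T cell sum does not hold them. Stimulated replicate 3 stood apart, with the fewest reads, the lowest T cell sum, 752 CPM of the 8 B cell markers and 1075 CPM of the erythroid markers. The next highest B cell and erythroid sums were 207 and 84.2 CPM, both in stimulated replicate 4, and the unstimulated libraries held 36.9 to 56.5 CPM and 10.8 to 58.6 CPM. The neutrophil markers summed to 69.0 to 295 CPM in stimulated and 55 to 172 CPM in unstimulated libraries, and those of macrophages and monocytes to 120 to 285 CPM and 117 to 334 CPM, while the dendritic cell and platelet markers reached at most 33.6 and 20.9 CPM in any of the 7 libraries. The globin genes Hba-a1, Hbb-bs and Hbb-bt were at 0 in all 7 libraries. The counter drops reads that map to several genes, so these values do not show that globin RNA was absent. The share of reads that fell on no gene also differed between libraries. It was 57.0%, 65.4%, 78.2% and 72.6% in stimulated replicates 1 to 4 and 77.9%, 76.5% and 71.8% in unstimulated replicates 1 to 3. Stimulated replicates 3 and 4 thus lay nearer the unstimulated libraries, and the stimulated WT libraries were at 48.3% to 65.2%. The part of this difference in the results was not tested. Because stimulated replicate 3 stood apart, counts of genes are given below also without stimulated replicate 3 and without stimulated replicates 3 and 4, an alternative chosen after seeing the data. In the shared estimate of the spread, Y665H replicate 4 held for every gene in the files the sum of the counts of Y665H replicates 1 and 2, so it is not an independent sample. Leaving it out, also chosen after seeing the data, gave 455 genes higher and 132 lower in the comparison below.

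**Figure D1:**
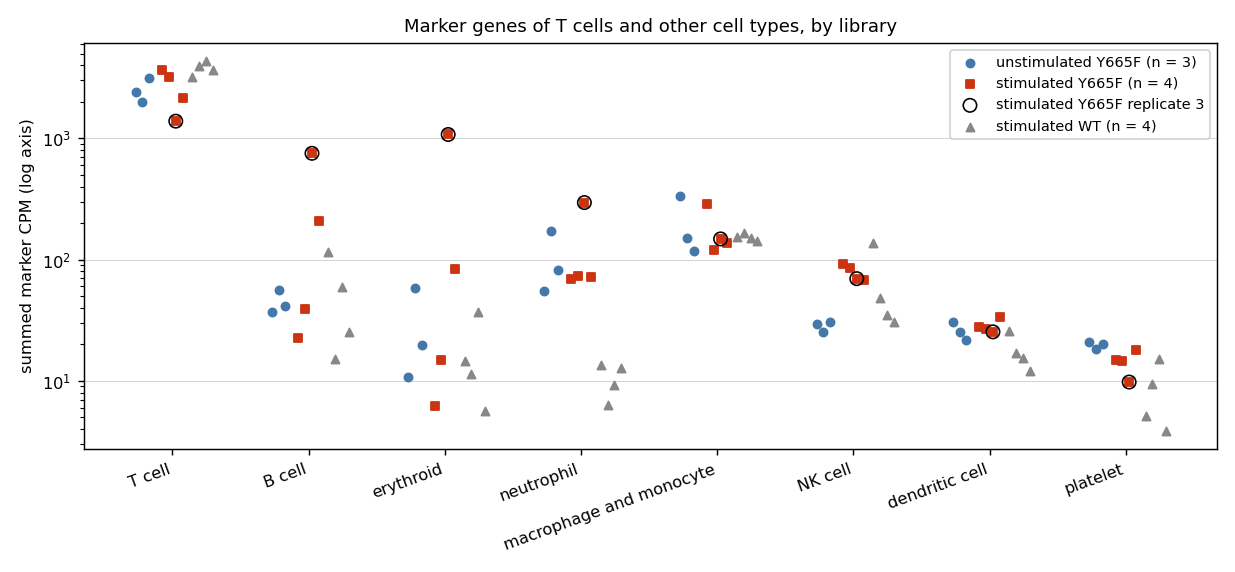
Summed CPM of marker genes of 8 cell types (log axis) in each of the 3 unstimulated Y665F, 4 stimulated Y665F and 4 stimulated WT libraries, 1 point per library. Stimulated Y665F replicate 3 is ringed and holds the highest B cell and erythroid sums (752 and 1075 CPM) and the lowest T cell sum (1385 CPM).

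With IL-2 and IL-7, 507 genes were higher and 155 were lower in Y665F T cells, at an adjusted p under 0.05 and a change beyond 1 on the log2 scale, which is 2.27% and 0.695% of the 22313 genes tested and 2.97% in both directions. In bulk RNA, more cells of a type and more RNA per cell cannot be told apart. Of the called genes, 76.6% were higher. This split moved with the scaling, to 61.1% higher (381 higher and 243 lower) with RLE size factors, 57.5% (355 and 262) with library totals and 59.8% (471 and 316) with DESeq2. Over every gene tested, the median change on the log2 scale was -0.13 with TMM factors, and -0.28, -0.31 and -0.27 under these 3 alternatives, so fold changes below are relative to the TMM scale. The count was 909 without stimulated replicate 3 and 1128 without stimulated replicates 3 and 4, and it fell to 417 without unstimulated replicate 1 and to 398 without unstimulated replicate 3. In 1630 genes all 4 stimulated libraries lay above all 3 unstimulated ones (7.31%), and in 1411 genes all lay below (6.32%). The background differed for the 9711 genes that averaged 5 CPM or more. Their median change was 0.19 with TMM factors, and 476 of them were called higher and 119 lower. In 1416 of them all stimulated libraries lay above all unstimulated ones, and in 468 below. Medians below such as 0.27 for JAK and STAT genes and 0.25 for cytotoxicity genes lay close to this background. So did the 0.18 of receptors for IL-12, IL-18 and type 2 cytokines, while the 0.04 of T cell receptor complex genes lay under it.

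Among called genes whose groups did not overlap and whose mean over the 7 libraries reached 5 CPM, the 6 largest rises were those of Gzmb, Gadd45g, Ecm1, Tnf, Gbp11 and Iigp1. Gzmb (chr14:56258836-56262334), which encodes the cytotoxic protease granzyme B, was at 593, 285, 210 and 298 CPM in stimulated replicates 1 to 4 and at 4.60, 9.01 and 3.15 CPM in unstimulated replicates 1 to 3. The lowest stimulated library lay far above the highest unstimulated one, and the log2 fold change was 5.95 (SE 0.57, adjusted p = 6.09e-07). Ecm1 (chr3:95734147-95739876), which encodes an extracellular matrix protein, was at 302, 274, 75.6 and 175 CPM in stimulated and 6.53, 5.42 and 6.44 CPM in unstimulated libraries, a log2 fold change of 5.08 (SE 0.41, adjusted p = 2.48e-07). The groups were far apart although stimulated replicate 3 was the lowest of its group. Tnf (chr17:35199367-35202007), the cytokine gene, was at 104, 97.7, 33.5 and 57.4 CPM in stimulated and 2.57, 2.67 and 2.48 CPM in unstimulated libraries, a log2 fold change of 4.84 (SE 0.44). Gadd45g, a stress-induced gene that also acts in T cell cytokine production, rested on 154, 108, 26 and 181 reads in stimulated and 2, 3 and 2 reads in unstimulated libraries, so its log2 fold change of 5.51 (SE 0.70) is set by 7 reads in the lower group.

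By the same rule, the 6 largest falls were those of Adam6b, Lrrc6, St8sia6, Lypd6b, Il7r and Actn2. St8sia6, a sialyltransferase gene, was at 24.3, 36.8, 14.6 and 11.3 CPM in stimulated and 138, 109 and 227 CPM in unstimulated libraries, so that it fell by 2.84 on the log2 scale (SE 0.31, adjusted p = 3.58e-06). Lypd6b fell by 2.82 (SE 0.28), from 32.8 to 64.2 CPM in unstimulated libraries to 4.59 to 8.92 CPM in stimulated ones. Actn2, an alpha-actinin gene, was at 1.48 to 2.76 CPM with and 10.8 to 12.7 CPM without interleukin, and Adam6b, which lies in the immunoglobulin heavy chain region, at 0.692 to 2.44 CPM with and 6.64 to 14.7 CPM without. Lrrc6 was at 41.1 CPM in unstimulated replicate 2 against 7.60 and 9.79 CPM in the other two, and at 1.24 to 2.74 CPM in stimulated libraries.

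**Figure D2:**
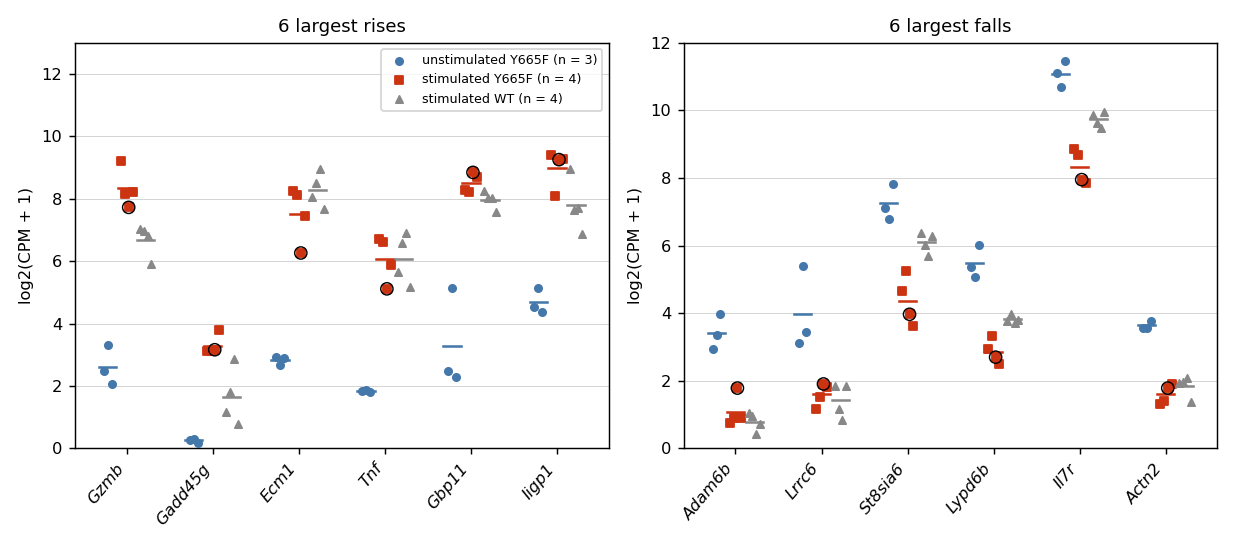
Level of the 6 genes with the largest rise (left) and the 6 with the largest fall (right), as log2(CPM + 1), with 1 point per library and a line at the group mean of these values. Stimulated Y665F replicate 3 is ringed. The genes were chosen among those whose groups do not overlap, and Gzmb rises by 5.95 and Adam6b falls by 3.29 on the log2 scale.

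Among the 11 receptor and ligand genes of the gamma-chain family, 5 were higher and 1 was lower, with a median log2 fold change of 0.71. The counts were the same without stimulated replicate 3 and were 4 and 1 without stimulated replicates 3 and 4, and the number higher fell to 3 without unstimulated replicate 1 and with library totals. The alpha chain of the IL-2 receptor, Il2ra (chr2:11642792-11693194), was at 193, 254, 158 and 175 CPM in stimulated and 29.9, 64.0 and 20.8 CPM in unstimulated libraries. The groups did not overlap, with unstimulated replicate 2 the highest of its group, and the log2 fold change was 2.35 (SE 0.37, adjusted p = 0.000261). The beta chain, Il2rb, which IL-2 and IL-15 receptors share, was at 541, 486, 190 and 440 CPM with and 66.6, 102 and 86.0 CPM without interleukin (log2 fold change 2.29, SE 0.31, adjusted p = 4.63e-05). The common gamma chain Il2rg was at 290 to 495 CPM against 205 to 288 CPM. It did not overlap between the groups but did not pass the test (log2 fold change 0.71, SE 0.21, adjusted p = 0.0559). Il4ra, the IL-4 receptor alpha chain, was higher by 1.97 (SE 0.33, adjusted p = 0.000629) and Il21r, the IL-21 receptor, by 1.15 (SE 0.26, adjusted p = 0.00885, but 0.131 without unstimulated replicate 1). Il15ra was higher by 1.11 (SE 0.30, adjusted p = 0.0329), a call lost in 6 of the 7 fits that left out 1 library.

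Il7r (chr15:9506159-9529941) moved in the opposite direction. It was at 459, 414, 247 and 231 CPM in stimulated and at 2194, 1659 and 2805 CPM in unstimulated replicates. The highest stimulated library lay far below the lowest unstimulated one, and Il7r fell by 2.71 on the log2 scale (SE 0.25, adjusted p = 5.14e-07), a call kept under all 17 alternatives. Its protein is the chain through which IL-7 binds. The ligand genes Il2, Il7 and Il15 and the receptor gene Il9r had means of 1.86 CPM or less in both groups and none was called.

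Of the 11 JAK and STAT genes, 2 were higher and none was lower, with a median log2 fold change of 0.27, and 3 and 2 were higher without stimulated replicate 3 and without stimulated replicates 3 and 4. Stat5b, the mutated gene, was at 127, 137, 91.8 and 162 CPM in stimulated and 120, 155 and 163 CPM in unstimulated libraries. The groups overlapped, and the log2 fold change was -0.17 (SE 0.22, adjusted p = 0.707). Stat5a, its paralog in the neighbouring gene, was at 43.0 to 53.2 CPM with and 26.1 to 34.3 CPM without interleukin and was not called (log2 fold change 0.61, SE 0.25, adjusted p = 0.203). Stat2, which acts downstream of type I interferon, was at 125, 88.4, 212 and 255 CPM with and 38.1, 46.9 and 47.5 CPM without interleukin (log2 fold change 1.94, SE 0.27, adjusted p = 8.05e-05). Its groups did not overlap. Stat3 (log2 fold change 0.75, SE 0.20, adjusted p = 0.031) and the kinase gene Jak1 (-0.99, SE 0.21, adjusted p = 0.00601) passed the adjusted p but not the fold minimum, and Jak3 had a log2 fold change of 1.05 (SE 0.37, adjusted p = 0.134).

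**Figure D3:**
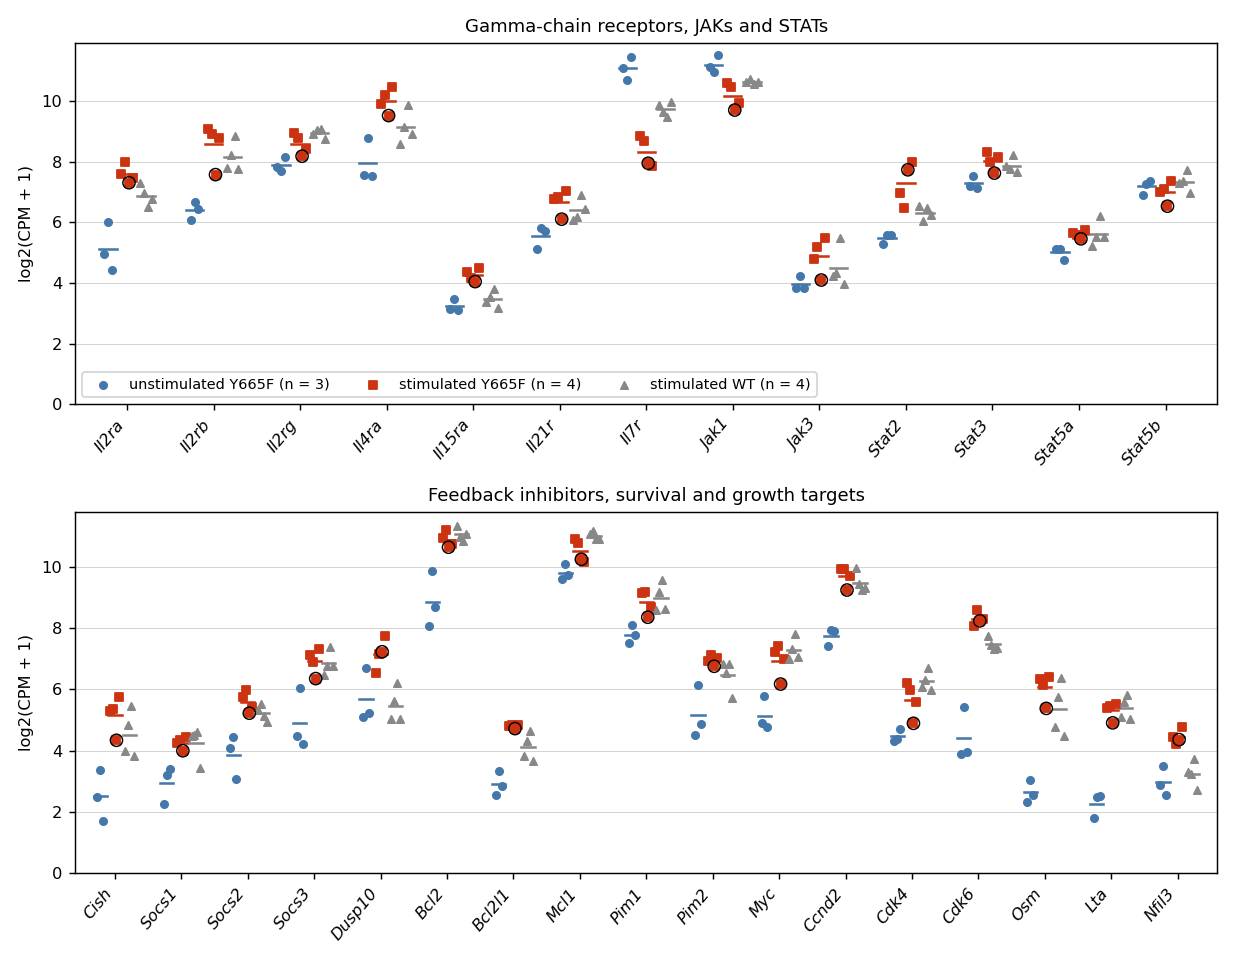
Level of gamma-chain receptor, JAK and STAT genes (top) and of feedback inhibitors and survival and growth genes (bottom), as log2(CPM + 1), with 1 point per library and a line at the group mean of these values. Stimulated Y665F replicate 3 is ringed; Il7r lies lower in all 4 stimulated than in all 3 unstimulated Y665F libraries, and Stat5b overlaps.

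Among 22 feedback inhibitors of cytokine and kinase signals, 5 were higher (Cish, Socs1, Socs2, Socs3 and Dusp10) and none was lower, with a median log2 fold change of 0.64. The number was 7 without stimulated replicate 3 and 7 without stimulated replicates 3 and 4, 3 without stimulated replicate 4 or without unstimulated replicate 1, and 2 without unstimulated replicate 3. Cish (chr9:107296659-107302784), whose protein binds activated cytokine receptors and whose start carries the GAS pair printed above, was at 37.8, 39.7, 19.2 and 52.4 CPM in stimulated and 4.60, 9.32 and 2.28 CPM in unstimulated libraries. The log2 fold change was 2.80 (SE 0.49, adjusted p = 0.000799), with no overlap. The suppressors of cytokine signalling Socs3 and Socs2 were higher by 1.84 (SE 0.35, adjusted p = 0.00196) and 1.74 (SE 0.36, adjusted p = 0.00434), and the call of Socs2 was lost without unstimulated replicate 3 (adjusted p = 0.0545). Socs1 (1.34, SE 0.36, adjusted p = 0.0335) lost its call in 6 of the 7 fits that left out 1 library. Dusp10, a phosphatase of stress-activated kinases, overlapped between the groups, at 92.0 to 211 CPM against 33.1 to 102 CPM, and its call (1.37, SE 0.35, adjusted p = 0.0252) was lost in 3 of these fits. The remaining suppressors, Socs4 to Socs7, and the phosphatases Ptpn2, Ptpn6, Ptpn11 and Ptpn22 were not called.

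Of 26 survival and growth genes, 11 were higher and none was lower, with a median log2 fold change of 0.89, and 12 were higher and 1 lower without stimulated replicate 3 and 13 and 1 without stimulated replicates 3 and 4. Cdk6, a kinase that drives entry into the cell cycle, was at 266, 380, 300 and 310 CPM in stimulated and 13.8, 42.2 and 14.4 CPM in unstimulated libraries (log2 fold change 3.74, SE 0.32, adjusted p = 3.29e-07). The cytokine genes Osm (oncostatin M) and Lta (lymphotoxin alpha) were higher by 3.67 (SE 0.41) and 3.32 (SE 0.31). Lta was at 40.7, 43.3, 29.0 and 45.4 CPM with and 2.46, 4.66 and 4.69 CPM without interleukin. For these 3 genes no library of one group reached the other. Bcl2, which prevents cell death, was at 1973, 2344, 1589 and 1724 CPM in stimulated and 264, 925 and 409 CPM in unstimulated libraries (log2 fold change 1.84, SE 0.30, adjusted p = 0.00045). Its relative Bcl2l1 was higher by 1.98 (SE 0.29), from 4.93 to 9.16 CPM to 25.3 to 27.8 CPM. Unstimulated replicate 2 was the highest of its group for Bcl2, Bcl2l1, Cdk6, Il2ra and Cish.

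The transcription factor Myc was at 146, 168, 71.1 and 125 CPM in stimulated and 29.0, 53.6 and 26.0 CPM in unstimulated libraries (log2 fold change 1.82, SE 0.29, adjusted p = 0.000349). Cyclin D2, encoded by Ccnd2, was at 603 to 975 CPM against 168 to 246 CPM (log2 fold change 1.96, SE 0.23, adjusted p = 1.23e-05), and the kinase gene Pim2 was higher by 1.62 (SE 0.31, adjusted p = 0.00212). The groups did not overlap for any of the 3. Pim1 (1.07, SE 0.25), Cdk4 (1.31, SE 0.28) and the transcription factor Nfil3 (1.56, SE 0.34) were also called higher, but without unstimulated replicate 1 their adjusted p rose to 0.131, 0.0678 and 0.0763. Nfil3 and Pim1 also lost the call without unstimulated replicate 3 (adjusted p = 0.0795 and 0.0688), and Pim1 fell under the fold minimum without stimulated replicate 1 or 2 (0.97 and 0.96). The survival gene Mcl1 had a log2 fold change of 0.73 (SE 0.23, adjusted p = 0.0876), the cell cycle inhibitor Cdkn1b -0.88 (SE 0.22, adjusted p = 0.0224) and the repressor Bcl6 -1.33 (SE 0.42, adjusted p = 0.084), and none of them was called. The pro-death genes Bax, Bak1, Bbc3, Pmaip1 and Bcl2l11 were not called either. Bcl2a1a, Bcl2a1b and Bcl2a1d are near-identical copies, and the counting drops reads that map to several genes, so their values are uncertain.

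Of the 26 lists, the one with the highest share of called genes was that of the guanylate-binding proteins and immunity-related GTPases, interferon-inducible proteins that act against intracellular microbes: 18 of 20 tested genes were higher and none was lower, and the median log2 fold change was 2.77. Without stimulated replicate 3, and without stimulated replicates 3 and 4, 17 were higher. Gbp2 (chr3:142620663-142638008) was at 1904, 650, 1616 and 1728 CPM in stimulated and 91.4, 101 and 82.7 CPM in unstimulated libraries, a log2 fold change of 4.01 (SE 0.41, adjusted p = 1.44e-06). Gbp11 was at 308, 297, 458 and 417 CPM with and 4.60, 34 and 3.82 CPM without interleukin (log2 fold change 4.70, SE 0.55), and Gbp10 at 52.2, 15.3, 49.1 and 61.5 CPM against 3.75, 2.21 and 1.48 CPM (4.19, SE 0.53). Stimulated replicate 2 was the lowest of its group for all 3 genes and still lay above every unstimulated library. Iigp1 was at 671, 270, 609 and 612 CPM against 21.9, 34.4 and 19.8 CPM (4.41, SE 0.52), Igtp at 457 to 989 CPM against 71.0 to 85.3 CPM (3.10, SE 0.28), and Irgm1 at 327 to 610 CPM against 71.5 to 77.6 CPM (2.70, SE 0.31). Summed over the 20 genes, the family reached 9907, 5672, 8218 and 9331 CPM in stimulated and 1230, 1668 and 1434 CPM in unstimulated libraries. Several members, among them Gbp6 and Gbp10 and also Tgtp1 and Tgtp2, are close copies of each other. The counting drops reads that map to several genes, so the levels of these members are uncertain.

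A promoter sequence was at hand for 12 of these 20 genes. Of the 12, 11 held an ISRE match and 7 a GAS match within the window of 300 bases, against 3.4% and 8.2% of all tested genes with a promoter. Igtp and Irgm1, printed above, show a GAS next to an ISRE in Igtp and overlapping ISRE matches in Irgm1. Over all 389 genes called higher that had a promoter, 14.9% held a GAS match and 8.2% an ISRE match, and over the 109 genes called lower these shares were 3.7% and 2.8%. No test was run on these shares.

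Of 34 genes induced by type I interferon, 16 were higher and none was lower, with a median log2 fold change of 1.37. Oasl2 was at 41.4, 13.8, 75.6 and 74.5 CPM in stimulated and 8.78, 7.56 and 6.24 CPM in unstimulated libraries (log2 fold change 2.76, SE 0.47, adjusted p = 0.000647), and Oas2, which like Oasl2 belongs to the oligoadenylate synthetase family, at 23.2, 11.6, 47.3 and 84.9 CPM against 7.49, 8.71 and 5.77 CPM (2.51, SE 0.48, adjusted p = 0.00195). For both genes stimulated replicates 3 and 4, the libraries with the most B cell marker counts, were the highest. Without these 2 libraries 13 genes of the list were higher and the median was 0.89, and without replicate 3 alone 15 were higher. Rtp4 (2.73, SE 0.37) and Bst2 (2.32, SE 0.37), the gene of the antiviral protein tetherin, did not overlap between the groups.

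Of 23 genes of the interferon gamma axis and of antigen presentation, 15 were higher and none was lower, with a median log2 fold change of 1.34. Without stimulated replicate 3 the number was 16, and without stimulated replicates 3 and 4 it was 17. Ifng itself, the gene of interferon gamma, was at 18.3, 12.9, 14.9 and 25.1 CPM in stimulated and 4.93, 4.43 and 2.75 CPM in unstimulated libraries, with no overlap (log2 fold change 2.15, SE 0.41, adjusted p = 0.00194). The transcription factor Irf1 was at 956, 637, 560 and 1073 CPM against 158, 149 and 147 CPM (2.41, SE 0.37, adjusted p = 0.000227). Irf8 was higher by 2.51 (SE 0.44), at 20.3 to 61.6 CPM against 6.03 to 10.9 CPM. Cd274, the gene of the checkpoint ligand PD-L1, was at 236, 146, 276 and 392 CPM against 57.2, 59.0 and 41.8 CPM (2.32, SE 0.32, adjusted p = 7.07e-05). The immunoproteasome genes Psmb8, Psmb9 and Psmb10 and the peptide transporter gene Tap1 were also called higher.

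**Figure D4:**
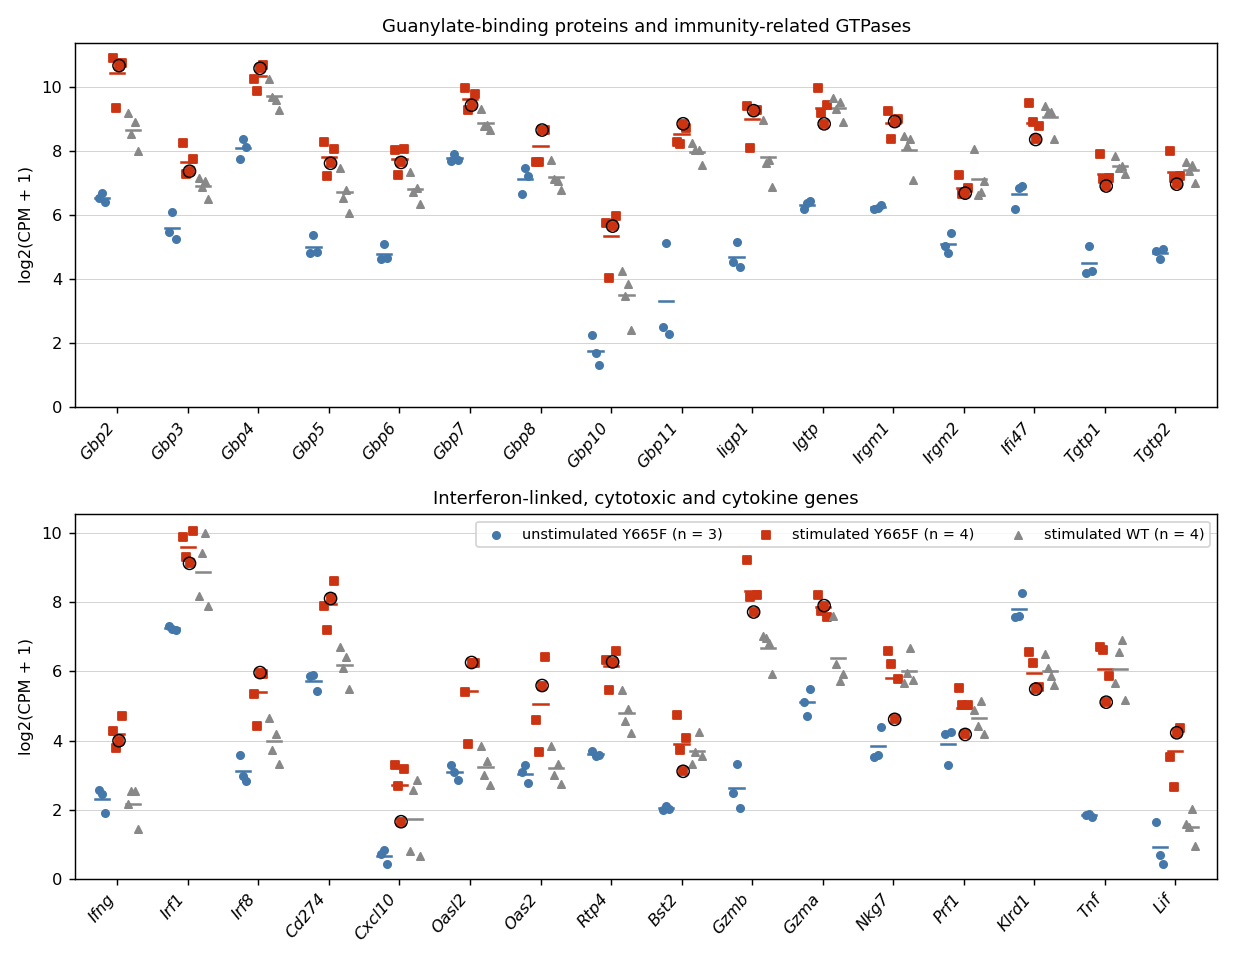
Level of guanylate-binding protein and immunity-related GTPase genes (top) and of interferon-linked, cytotoxic and cytokine genes (bottom), as log2(CPM + 1), with 1 point per library and a line at the group mean of these values. Stimulated Y665F replicate 3 is ringed; in the top panel all 4 stimulated libraries lie above all 3 unstimulated ones for each gene drawn.

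Of 24 genes of granzymes and cytotoxicity, 4 were higher (Gzmb, Gzma, Nkg7 and Prf1) and 1 was lower, with a median log2 fold change of 0.25, and 7 were higher without stimulated replicate 3 and also without stimulated replicates 3 and 4. Gzma was at 294, 215, 239 and 190 CPM in stimulated and 33.4, 25.4 and 44.0 CPM in unstimulated libraries (log2 fold change 2.77, SE 0.36, adjusted p = 3.14e-05). Nkg7, a granule protein gene, was at 23.5 to 94.7 CPM against 10.6 to 19.9 CPM (2.16, SE 0.36, adjusted p = 0.000498). Klrd1, which encodes the CD94 receptor of natural killer (NK) and CD8+ T cells, moved the other way, at 93.5, 75.0, 43.9 and 45.6 CPM with and 191, 193 and 307 CPM without interleukin, and fell by 1.83 (SE 0.27, adjusted p = 0.000114). Markers of NK cells, which also carry granzymes, moved with these genes: their sum was 68.1 to 92.6 CPM in stimulated and 25.1 to 30.8 CPM in unstimulated libraries. Of the 4 NK markers listed, Ncr1 (2.36, SE 0.45, adjusted p = 0.00224) and Klrb1c (1.86, SE 0.45, adjusted p = 0.0159) were called higher, the latter not without any 1 of the unstimulated replicates (adjusted p 0.0753 to 0.0881), Klre1 was not called, and Klra8 was at 0. The part of NK cells in the granzyme values was not tested.

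Of 26 T cell cytokine genes, 6 were higher and none was lower, and the number was 6 and 7 without stimulated replicate 3 and without stimulated replicates 3 and 4. Beside Tnf and Ifng, Lif, the gene of leukemia inhibitory factor, was at 10.5, 5.31, 17.7 and 19.6 CPM in stimulated and 2.14, 0.611 and 0.335 CPM in unstimulated libraries (log2 fold change 3.75, SE 0.59, adjusted p = 0.000292). Fasl, the gene of the Fas ligand, was higher by 1.48 (SE 0.33, adjusted p = 0.00949), but not without unstimulated replicate 1 (adjusted p = 0.08) or 2 (adjusted p = 0.0625). Of 10 chemokine genes, 4 were higher (Ccl3, Ccl17, Ccl22 and Xcl1), with 2.45 (SE 0.50) for Ccl3 and 2.37 (SE 0.49) for Ccl22. The number was 5 without stimulated replicate 3 and without stimulated replicates 3 and 4, and 2 without stimulated replicate 1, without unstimulated replicate 2, with RLE factors or with library totals. Without unstimulated replicate 3 none of the 4 was called, and the adjusted p of Ccl3 and Ccl22 became 0.0536 and 0.0595. Among 17 receptors for IL-12, IL-18 and type 2 cytokines, 2 were higher and 1 lower. The median log2 fold change was 0.18, near the 0.19 of genes averaging 5 CPM or more. The counts were 2 and 0 without stimulated replicate 3 and without stimulated replicates 3 and 4. Il12rb2, the signalling chain of the IL-12 receptor, was at 88.4, 71.7, 111 and 135 CPM against 13, 20.5 and 20.2 CPM (2.5, SE 0.34, adjusted p = 5.14e-05), and its partner Il12rb1 was higher by 2.11 (SE 0.40, adjusted p = 0.00187). Il6ra, the IL-6 receptor gene, was lower by the test (-1.03, SE 0.26, adjusted p = 0.0225), but the groups overlapped and the call was lost in 4 of the 7 fits that left out 1 library.

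Of 40 cell cycle and DNA replication genes, 18 were higher and none was lower, with a median log2 fold change of 1.15, and with TMM factors all 40 had a positive log2 fold change. Genes of cell division outside the list were lower, among them Cdc25b (-2.02, SE 0.21), Smc4 (-1.71, SE 0.27) and Depdc1b (-1.60, SE 0.27), which were named after their values were seen. Without stimulated replicate 3 the number higher was 20, and without stimulated replicates 3 and 4 it was 17. Uhrf1, which maintains DNA methylation at replication, was at 60.7, 36.9, 56.4 and 54.7 CPM in stimulated and 3.43, 5.50 and 2.28 CPM in unstimulated libraries (log2 fold change 3.80, SE 0.34, adjusted p = 3.29e-07). Mcm10, a replication factor, was higher by 2.69 (SE 0.46), Top2a, a topoisomerase, by 2.03 (SE 0.39), and Rrm2, a subunit of ribonucleotide reductase, by 2.00 (SE 0.32). Their groups did not overlap. In unstimulated libraries Rrm2 was at 4.93 to 9.47 CPM and Mcm10 at 0.536 to 2.67 CPM.

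Of 16 genes of one-carbon, serine and polyamine synthesis, 11 were higher and none was lower, with a median log2 fold change of 1.38, and 11 were higher also without stimulated replicate 3 and without stimulated replicates 3 and 4. Psat1, an enzyme of serine synthesis, was at 135, 112, 52.8 and 52.1 CPM in stimulated and 7.82, 9.62 and 7.24 CPM in unstimulated libraries (log2 fold change 3.42, SE 0.30, adjusted p = 3.29e-07), and asparagine synthetase, Asns, at 42.7, 43.1, 30.5 and 14.1 CPM against 2.57, 3.21 and 2.28 CPM (3.60, SE 0.41, adjusted p = 6.8e-06). Stimulated replicates 1 and 2 were the highest in both, and all 4 lay above the unstimulated libraries. Shmt2, a mitochondrial serine enzyme, was higher by 2.64 (SE 0.44) and Srm, which makes spermidine, by 2.93 (SE 0.52). Of 19 nutrient transporter genes, 6 were higher and none was lower, and 8 and 7 were higher without stimulated replicate 3 and without stimulated replicates 3 and 4. Slc7a5, the light chain of the large neutral amino acid transporter, was at 94.4, 122, 58.6 and 72.2 CPM against 9.42, 17.9 and 9.99 CPM (2.80, SE 0.34, adjusted p = 1.21e-05), and its heavy chain Slc3a2 was higher by 1.41 (SE 0.23, adjusted p = 0.000481). The transporters Slc1a4 (2.49, SE 0.36) and Slc7a1 (1.58, SE 0.24) were higher as well.

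Of 24 heat-shock and unfolded protein response genes, 14 were higher and none was lower, with a median log2 fold change of 1.21, and the number was 15 without stimulated replicate 3 and 19 without stimulated replicates 3 and 4. Xbp1, the transcription factor of the unfolded protein response, was at 162, 160, 157 and 156 CPM in stimulated and 45.3, 58.0 and 51.3 CPM in unstimulated libraries, with little spread within either group (log2 fold change 1.62, SE 0.20, adjusted p = 1.65e-05). The chaperone genes Hspa5 (1.58, SE 0.27) and Pdia4 (1.59, SE 0.24) and the co-chaperone gene Sdf2l1 (2.33, SE 0.40) were higher too. Of 32 ribosome biogenesis genes, 11 were higher and 1 was lower, but this count depended on single libraries. It was 3 without unstimulated replicate 1, 4 without stimulated replicate 1, 5 without unstimulated replicate 3, 7 without stimulated replicate 2, 19 without stimulated replicate 3, 23 without stimulated replicates 3 and 4, 6 with RLE factors or DESeq2 and 5 with library totals. Rrp1b (1.60, SE 0.25) and Polr1b, a subunit of RNA polymerase I (1.41, SE 0.23), were the largest rises of the list, followed by Nop16 (1.34, SE 0.31) and Nop2 (1.30, SE 0.27), whose calls were both lost without unstimulated replicate 1 (adjusted p = 0.0701 and 0.057), the former in 4 of the 7 fits that left out 1 library.

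Of 29 genes of cholesterol and fatty acid synthesis, 9 were higher and none was lower, with a median of 0.83. The number was 10 without stimulated replicate 3 and without stimulated replicates 3 and 4, and it fell to 5 without unstimulated replicate 2, 4 without unstimulated replicate 3, 5 with RLE factors and 4 with library totals. The elongase gene Elovl6 was higher by 1.32 (SE 0.23, adjusted p = 0.00072). The calls of Mvd and Fdps in this list were lost in 6 and 5 of the 7 fits that left out 1 library. Of 23 glycolysis and hypoxia genes, 5 were higher, 9 without stimulated replicate 3 and 8 without stimulated replicates 3 and 4. They included Vegfa (1.97, SE 0.35), Tpi1 (1.83, SE 0.36) and hexokinase 2, Hk2 (1.72, SE 0.34), while Pgk1 overlapped between the groups and lost its call in 3 of the 7 fits that left out 1 library. Of 25 oxidative phosphorylation genes 2 were called higher, Ndufa4 and Atp5b, which overlapped between the groups. The number was 6 without stimulated replicate 3, 11 without stimulated replicates 3 and 4, 1 without unstimulated replicate 2 or 3, and 0 without stimulated replicate 1, without stimulated replicate 2 or without unstimulated replicate 1, and 0 as well with RLE factors, library totals, DESeq2 or without Y665H replicate 4.

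Genes of naive and quiescent T cells had the lowest median of the 26 lists, -0.60 on the log2 scale. Of 33 such genes, 7 were lower and 1 was higher. The number lower was 6 without stimulated replicate 3, 4 without stimulated replicates 3 and 4, 3 without unstimulated replicate 3 11 without unstimulated replicate 2 and 12 with RLE factors, library totals or DESeq2. Il7r, given above, is 1 of them. Actn1 was at 177, 155, 54.9 and 115 CPM in stimulated and 361, 220 and 443 CPM in unstimulated libraries and fell by 1.43 (SE 0.30, adjusted p = 0.0046, but 0.0595 without unstimulated replicate 3). Dapl1 overlapped between the groups, at 6.10 to 40.2 CPM against 34.3 to 83.3 CPM, and its call (-1.57, SE 0.41, adjusted p = 0.0264) was lost in 3 of the 7 fits that left out 1 library. Igfbp4 was the member that rose, at 101, 121, 50.9 and 82.1 CPM against 16.8, 34.1 and 21.5 CPM (1.88, SE 0.34, adjusted p = 0.00115). Ccr7, Lef1, Tcf7, Klf2 and S1pr1, genes often used to mark naive T cells and their recirculation, were not called, although Klf2 (-0.82, SE 0.20, adjusted p = 0.0191) passed the adjusted p and Tcf7 (-0.99, SE 0.28) had an adjusted p of 0.0503.

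**Figure D5:**
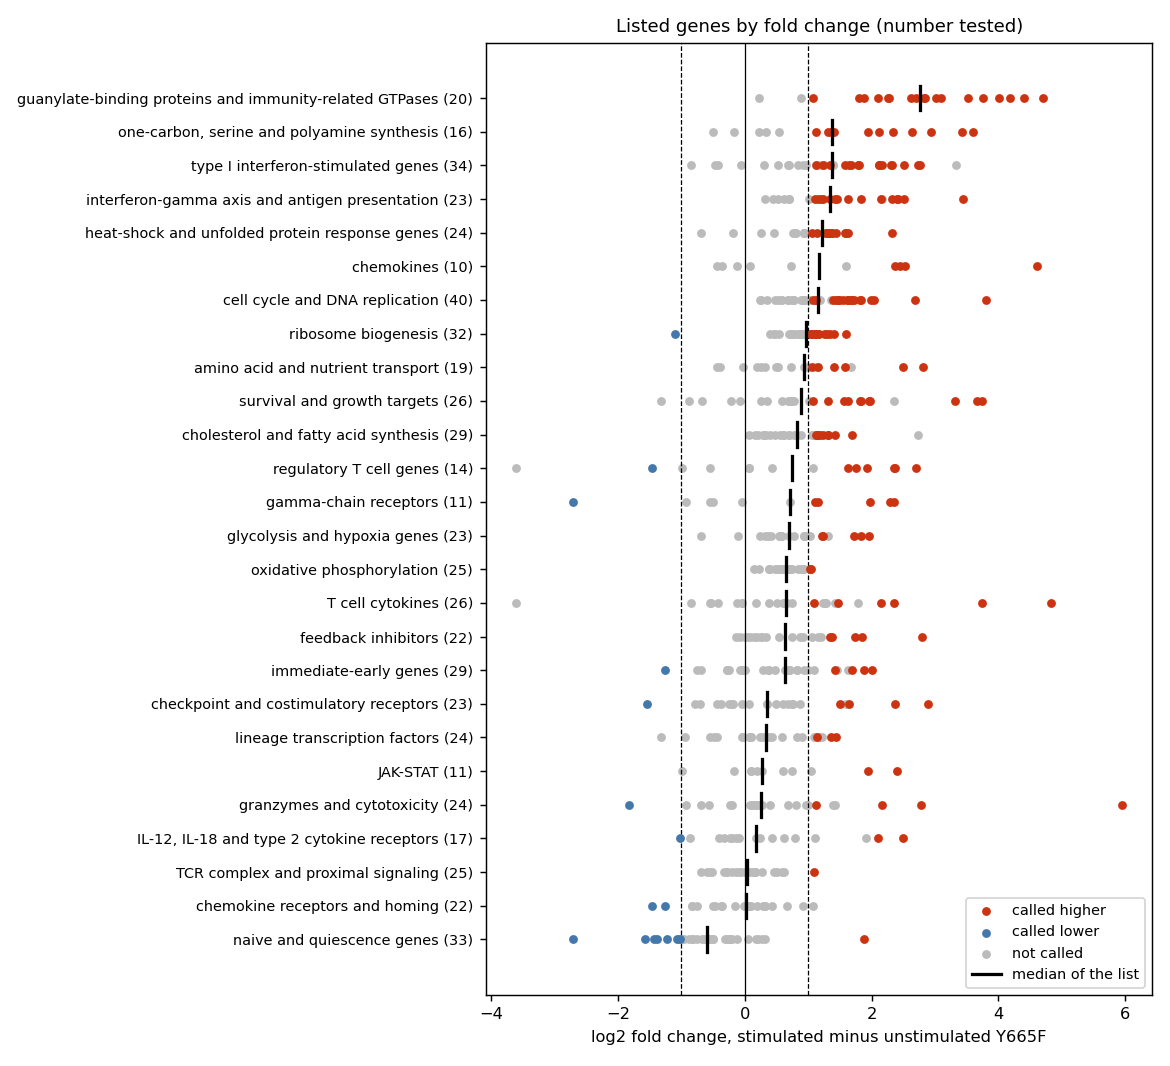
Log2 fold change of stimulated over unstimulated Y665F T cells for each tested gene of 26 lists (rows, with the number tested), ordered by the median, which is drawn as a black bar. Red and blue points passed the test, grey points did not, and the dashed lines mark the fold minimum; the medians run from -0.60 for naive and quiescence genes to 2.77 for guanylate-binding proteins and immunity-related GTPases.

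Among 22 chemokine receptor and homing genes, none was higher and 2 were lower: Cxcr4 (-1.26, SE 0.22, adjusted p = 0.000945), the receptor for CXCL12, and Itgae (-1.46, SE 0.30, adjusted p = 0.00401), the CD103 integrin chain, whose call was lost without unstimulated replicate 3 (adjusted p = 0.0578). The counts were the same without stimulated replicate 3 and without stimulated replicates 3 and 4. The median of this list was 0.03 and changed its sign with the other scalings. Of 23 checkpoint and costimulatory receptor genes, 4 were higher and 1 was lower, and 4 and 1 without stimulated replicate 3 and 5 and 1 without stimulated replicates 3 and 4. Tnfrsf9, which encodes 4-1BB, was at 124, 80.4, 46.7 and 97.3 CPM in stimulated and 16.2, 14.1 and 5.30 CPM in unstimulated libraries (log2 fold change 2.89, SE 0.41, adjusted p = 8.06e-05), and Tnfrsf18, which encodes GITR, and the activation marker Cd69 were higher by 2.38 (SE 0.41) and 1.64 (SE 0.28). None of these 3 overlapped between the groups. Cd28, the costimulatory receptor, was at 150, 173, 55.8 and 91.2 CPM against 279, 274 and 479 CPM and fell by 1.54 (SE 0.31, adjusted p = 0.00301, but 0.0539 without unstimulated replicate 3).

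Of 14 regulatory T cell genes, 6 were higher and 1 was lower, Itgae, with a median of 0.75. It was 7 higher and 1 lower without stimulated replicate 3 and without stimulated replicates 3 and 4. The number lower was 2 without stimulated replicate 1 or 2 or unstimulated replicate 1 and with RLE factors, library totals or DESeq2, and 0 without unstimulated replicate 3. Gpr83 (2.71, SE 0.33), Tnfrsf18, Il2ra and the transcription factor Ikzf4 (1.93, SE 0.28) led the list, while Foxp3, which defines these cells, was not called (0.43, SE 0.28, adjusted p = 0.449). Of 24 lineage transcription factors, 3 were called higher, 5 without stimulated replicate 3, 5 without stimulated replicates 3 and 4, and 1 without unstimulated replicate 1 or without unstimulated replicate 3. Irf4 (1.36, SE 0.25, adjusted p = 0.00155) kept its call, while Bhlhe40 (1.43, SE 0.32) lost it without unstimulated replicate 1 (adjusted p = 0.065) or 3 (adjusted p = 0.0795) and Tbx21, the gene of T-bet (1.15, SE 0.32, adjusted p = 0.0461), lost it in 6 of the 7 fits that left out 1 library. Of 29 immediate-early genes, 4 were higher and 1 was lower. The counts were the same without stimulated replicate 3 and without stimulated replicates 3 and 4, and 2 were higher without unstimulated replicate 1 or 3. Nfkbiz, a regulator of NF-kB targets, and Rgs1 were higher by 1.89 (SE 0.31) and 1.70 (SE 0.30), while Fos (2.01, SE 0.50, adjusted p = 0.0198) and Fosl2 (1.42, SE 0.31, adjusted p = 0.00716) lost their calls without unstimulated replicate 1 (adjusted p = 0.138 and 0.0756) or 3 (adjusted p = 0.127 and 0.0595), and Fos also without stimulated replicate 2 (adjusted p = 0.0659). Of 25 genes of the T cell receptor complex and its proximal signals, 1 was called, and also 1 without stimulated replicate 3 and without stimulated replicates 3 and 4. The median of the list was 0.04, under the 0.19 of genes averaging 5 CPM or more, and it changed its sign with the other scalings. The called gene was Cd8a, at 826, 782, 440 and 634 CPM against 232, 346 and 363 CPM (1.10, SE 0.22, adjusted p = 0.00362). It fell under the fold minimum without stimulated replicate 1 (0.98) and without unstimulated replicate 1 (0.89), and it was not called with RLE factors, library totals or DESeq2. Its partner Cd8b1 (0.07, adjusted p = 0.939) and Cd4 (-0.69, adjusted p = 0.229) were not called, and the shares of CD4+ and CD8+ T cells were not measured in these libraries.

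The stimulated WT libraries give the level of these genes in WT T cells under the same interleukins. The comparison shares the 4 stimulated Y665F libraries with the one above. Between stimulated Y665F and stimulated WT T cells, 257 genes were higher (1.15%) and 85 were lower (0.381%) in Y665F. This count rested on few libraries: it was 172 without stimulated Y665F replicate 3, 93 without stimulated Y665F replicate 4, 809 without stimulated Y665F replicate 1, 136 to 681 when 1 WT library was left out, and 5 without stimulated Y665F replicates 3 and 4. Of the 5, 2 were the neutrophil genes S100a8 and S100a9, and the sum of the neutrophil markers was 69.0 to 295 CPM in stimulated Y665F and 6.32 to 13.4 CPM in stimulated WT libraries.

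Il7r was at 939, 790, 708 and 1001 CPM in stimulated WT libraries, above all 4 stimulated Y665F libraries, and was lower in Y665F by the test (-1.35, SE 0.23, adjusted p = 0.00476), with -0.98 and an adjusted p of 0.17 without stimulated Y665F replicates 3 and 4. Il2ra was at 89.8 to 157 CPM in stimulated WT against 158 to 254 CPM in stimulated Y665F libraries, with no call (0.70, adjusted p = 0.206). Cish, Myc, Bcl2, Ccnd2, Tnf, Ecm1 and Igtp were not called between the genotypes either. Gbp2 was at 582, 365, 473 and 252 CPM in stimulated WT libraries, below the 650 CPM of the lowest stimulated Y665F library (1.82, SE 0.33, adjusted p = 0.00579). Ifng was at 3.49, 4.77, 4.78 and 1.71 CPM, Il12rb2 at 13.6 to 50 CPM and Cd274 at 43.6 to 103 CPM in stimulated WT, and their log2 fold changes were 2.26 (SE 0.36), 1.86 (SE 0.30) and 1.81 (SE 0.28). Of the genes given above, 23 were called between the genotypes, and without stimulated Y665F replicates 3 and 4 all 23 kept their direction and none kept the call, in a fit with 2 libraries in that group. Whether the response to interleukins differs between the genotypes was not tested.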

How the data were processed

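Total RNA of splenic T cells was sequenced after removal of ribosomal RNA with a stranded library kit. The authors trimmed reads with Trimmomatic 0.36, aligned them to mm10 with STAR and counted reads per gene with HTSeq 0.9.1. The annotation and the strand setting are not given in the sources used here. The deposited values were raw counts for 24421 gene symbols, and 5 summary lines of each file entered neither depth nor tests (reads without a feature were 57.0% to 78.2% of the reads on genes, without a feature or ambiguous). Reads that map to several genes are dropped by this counter, so near-identical genes are uncertain.

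Genes with at least 10 reads over the 15 splenic T cell libraries (22313 genes) were tested with edgeR 4.0.16 (quasi-likelihood test, TMM factors, R 4.3.3), all groups (stimulated WT, Y665H and Y665F, and unstimulated Y665F) sharing 1 estimate of the spread. A gene was called at a Benjamini-Hochberg adjusted p under 0.05 with a log2 fold change beyond 1, and every adjusted p in the text is from this test unless DESeq2 is named. CPM are TMM-scaled and not divided by gene length. On simulated counts the script was tested before use. The labels do not say that replicates came from separate mice. The p-values thus weigh each change against a spread between libraries, estimated over all 15, which may not be a spread between mice. With the 7 Y665F libraries alone, 447 genes were higher and 159 lower. Any 2 of the 7 Y665F libraries had the same count in at most 97 genes with over 20 reads. Of the 15 libraries, Y665H replicate 4 was the sum of Y665H replicates 1 and 2, and it stayed in the fit as planned, with an alternative without it. The adjusted p in the text thus come from a fit that counts it as a separate library, unless an alternative is named.

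The libraries were chosen by name and the gene lists were chosen with earlier results of these data known. Genes named were all genes of the 4 receptor, JAK-STAT, feedback and survival lists, up to 4 called genes per other list with the largest change, the 6 largest rises and 6 largest falls without overlap (each averaging 5 CPM or more), and Stat5b. Other genes named, including Prf1, Ccl17, Xcl1, Ncr1, Klrb1c, Klre1, Foxp3, Cdc25b, Smc4, Depdc1b, Cd4, Cd8b1, the naive T cell and immunoproteasome genes, S100a8 and S100a9, were chosen after their values were seen. Promoters came from RefSeq (GRCm38.p6). Alternatives were DESeq2 1.42.0, RLE factors, library totals, other filters, a replicate block, an RUVr factor, the Y665F libraries alone and leaving out libraries. Some genes of the lists are not reported here by name, though the list counts include them.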

Additional observations from a re-analysis of the deposited data

Results flagged for a closer look

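In the group of 4 stimulated Y665F libraries, 9 of 129 values checked had 1 library far from the others by Dixon's test, which chance gives for about 1 in 20. Stimulated replicate 3 held 1075 CPM of erythroid markers (the others 6.23 to 84.2 CPM) and 295 CPM of neutrophil markers (the others 69.0 to 73.2 CPM). It was also low in the phosphatase gene Ptpn1, at 76.9 CPM against 116 to 121 CPM, and in Nfkbiz, at 445 CPM against 580 to 604 CPM, and high in Adam6b, at 2.44 CPM against 0.692 to 0.850 CPM. The Adam6b value rested on 8 reads in stimulated replicate 3, against 14, 12 and 12 reads in stimulated replicates 1, 2 and 4. Stimulated replicate 1 held 285 CPM of macrophage and monocyte markers (the others 120 to 148 CPM) and 12.1 CPM of Sdf2l1 (the others 5.94 to 6.52 CPM). Stimulated replicate 2 was low in Iigp1, at 270 CPM against 609 to 671 CPM, and stimulated replicate 4 was high in Gadd45g, at 12.8 CPM against 7.62 to 7.93 CPM.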

How the results depend on the processing

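The 507 higher and 155 lower genes of the Y665F comparison kept a majority of higher calls under every alternative run. The number lower was 243 with RLE factors, 262 with library totals, 316 with DESeq2 and 330 with the RUVr factor. Leaving out 1 library gave 398 to 909 calls in all, 283 to 693 higher and 79 to 216 lower. Without stimulated replicates 3 and 4 there were 1128 calls, 905 of them higher. Without Y665H replicate 4 there were 587 calls, and 295 in the comparison with WT. In that fit 7 of the genes given with values lost their call: Il15ra, Socs1, Tbx21, Mvd, Fdps, Ndufa4 and Atp5b. Between stimulated Y665F and stimulated WT T cells, the 342 calls became 955 with DESeq2, 194 with the 8 libraries alone, 155 with the replicate block, 1335 with the RUVr factor, 93 to 809 when 1 library was left out and 5 without stimulated replicates 3 and 4. The cause of these shifts was not tested. The replicate block gave 519 calls in the Y665F comparison. Samples of the same number correlated at 0.37, -0.36 and -0.39 in their deviations from the group means, so the numbers were not taken to pair the samples. Of 118 genes given with values in every library, 108 were called, and 79 kept the call under all 17 alternatives while 29 lost it under at least 1. No call changed direction. The fewest reads, 2851451 in stimulated replicate 3, limit the precision of genes with low levels.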

Other observations

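Among genes averaging 5 CPM or more, split by length into 4 groups of nearly equal size, the log2 fold change was higher for short than for long gene models: from the shortest to the longest group the median was 0.30, 0.22, 0.16 and 0.11, and 6.48%, 5.63%, 4.56% and 3.41% of genes were called higher. This is a description across genes, and no test was run on it.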
